A study of Mus musculus with 36 samples.

Results

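The 9 genes described here are used in mouse brain as readouts of adult neurogenesis and cell division: Mki67, Top2a, Eomes, Neurod1, Sox4, Sox11, Dcx, Igfbpl1 and Draxin. They were chosen by gene symbol as known markers, with no cutoff on a measured value but with earlier results of these data known, and all 9 were found among the 36172 gene rows of the deposited table. Libraries of polyA RNA were made from the hippocampus of Cx3cr1-NuTRAP mice, a genotype that every animal carried. In this model a cre recombinase is placed under the promoter of the chemokine receptor gene Cx3cr1, which microglia and some macrophages use, and after induction it turns on a GFP-tagged ribosomal protein. RNA on the tagged ribosomes is pulled down with an antibody to GFP (translating ribosome affinity purification, TRAP), and the input is homogenate kept back before the pulldown. The young group held 10 inputs of animals aged 6 months and induced early (5 female, 5 male). The old early group held 12 inputs of animals aged 22 months and induced early (7 female, 5 male). The old late group held 7 inputs of animals aged 22 months and induced late (5 female, 2 male), and the 7 TRAP libraries came from these same 7 animals. All groups were induced, no group without cre entered the comparisons, and the labels give no age for either induction. Any cell in which the Cx3cr1 promoter drives cre can carry the tag, so the pulldown is a microglial fraction only as far as that promoter is selective. Pulldowns of the early-induced groups were not analysed here.

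In the adult dentate gyrus, radial glia-like stem cells divide and give rise to intermediate progenitors, which express the transcription factor Eomes (Tbr2). Progenitors pass to neuroblasts and immature granule neurons under transcription factors such as Neurod1 and the SoxC proteins Sox4 and Sox11. These cells carry the microtubule-binding protein Dcx before they mature into granule neurons. Mki67 and Top2a mark dividing cells of any type: Mki67 encodes the Ki-67 antigen that coats mitotic chromosomes, and Top2a the topoisomerase that untangles replicated DNA. Igfbpl1 encodes a secreted protein related to the insulin-like growth factor binding proteins, and Draxin a secreted axon guidance protein that binds netrin receptors.

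Promoter sequences are shown for 4 members whose levels moved together or apart in the comparisons below. Top2a and Mki67 are the pair of cell cycle genes, and Sox4 and Sox11 are related genes that went in opposite directions in the pulldown. Each sequence is the 250 bases before the RefSeq gene start (GRCm38.p6), read on the gene's strand. Capitals mark CCAAT, the NF-Y box, and TTTGAA or TTCGAA, the letters of the cell cycle homology region, on either strand, so that CCAAT also appears as ATTGG and TTTGAA as TTCAAA. No CCAAT overlapped a TTTGAA or TTCGAA in these windows. The windows lie on the minus strand at chr11:99024190-99024439 (Top2a), chr7:135716380-135716629 (Mki67), chr13:28953700-28953949 (Sox4) and chr12:27342719-27342968 (Sox11).
Top2a: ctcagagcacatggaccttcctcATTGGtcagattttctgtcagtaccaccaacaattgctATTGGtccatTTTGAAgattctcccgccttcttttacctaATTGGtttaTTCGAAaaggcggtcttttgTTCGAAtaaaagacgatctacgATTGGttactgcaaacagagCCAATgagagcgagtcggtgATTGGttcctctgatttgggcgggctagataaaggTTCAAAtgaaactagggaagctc
Mki67: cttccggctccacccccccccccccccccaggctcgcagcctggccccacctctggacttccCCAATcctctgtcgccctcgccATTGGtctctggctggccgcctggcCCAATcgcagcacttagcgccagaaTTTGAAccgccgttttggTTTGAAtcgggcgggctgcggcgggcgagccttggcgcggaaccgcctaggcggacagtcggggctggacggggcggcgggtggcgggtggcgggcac
Sox4: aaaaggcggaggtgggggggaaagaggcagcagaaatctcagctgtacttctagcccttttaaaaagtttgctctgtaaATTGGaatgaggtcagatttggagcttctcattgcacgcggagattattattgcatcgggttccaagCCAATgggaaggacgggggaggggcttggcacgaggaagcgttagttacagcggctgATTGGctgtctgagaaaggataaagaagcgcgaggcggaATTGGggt
Sox11: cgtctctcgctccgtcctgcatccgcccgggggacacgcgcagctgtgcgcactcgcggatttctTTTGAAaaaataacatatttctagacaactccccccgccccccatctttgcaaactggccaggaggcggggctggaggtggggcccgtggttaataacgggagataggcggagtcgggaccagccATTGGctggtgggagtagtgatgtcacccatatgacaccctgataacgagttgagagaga
The Top2a window held 6 CCAAT boxes and 4 TTTGAA or TTCGAA matches, and the Mki67 window held 3 and 2. Among 32851 RefSeq promoter windows of the same length, 33.8% held a CCAAT, 2.79% held at least 3 and 0.0578% held at least 6. TTTGAA or TTCGAA stood in 17.1% of windows, and 0.451% held at least 3 CCAAT together with one of them. The Sox4 window held 4 CCAAT and 0 TTTGAA or TTCGAA, and the Sox11 window 1 of each. Of the 9 members, 8 were matched in the RefSeq promoter table. Neurod1 and Draxin had 0 CCAAT in this window, Eomes had 2, and Dcx had 1 in the first of its windows. A match describes the letters only.

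The libraries held 12.9 to 20.4 M estimated counts. As a check of the pulldown, Cx3cr1 was at 40.0 ± 5.2 CPM in old late inputs and 696 ± 131 CPM in TRAP (SD, n = 7 each), and 20 of 20 microglial markers were called higher in TRAP. Choroid plexus markers, from a tissue that lies against the hippocampus, varied widely within each group: their summed level ran from 48.4 to 3098 CPM in young, 47.6 to 4125 CPM in old early and 48.8 to 3500 CPM in old late inputs. Blood markers summed to 1409 CPM in 1 old early input, against a group median of 162 CPM.

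Levels are given as CPM, counts scaled to library size, with TMM, a normalization that aligns libraries on the bulk of their genes. Per kilobase of exon, the young inputs ranked Neurod1 first with 7.42 ± 0.60 CPM per kb (SD, n = 10). Sox4 followed at 3.95 ± 0.36, Sox11 at 2.48 ± 0.20, Dcx at 1.30 ± 0.18 and Igfbpl1 at 0.971 ± 0.315 CPM per kb. Eomes had 0.349 ± 0.171, Mki67 0.217 ± 0.049, Draxin 0.187 ± 0.093 and Top2a 0.102 ± 0.035 CPM per kb. With the exon lengths used, the first 4 had ranges that did not overlap in the young inputs, while each lower neighbour overlapped the one above it. The length used for Sox4, 4.795 kb, is longer than its deposited locus (chr13:28950730-28953682). A shorter length would raise its level per kb, so its values per kb and its gap to Neurod1 in the inputs are uncertain. The same order of means held in the old early and the old late inputs. In the TRAP libraries Sox4 came first, at 7.44 ± 0.65 CPM per kb, ahead of Neurod1 at 5.07 ± 0.68, and Top2a took the fifth place, at 0.539 ± 0.368 CPM per kb (SD, n = 7). The counts behind these levels differ widely. Neurod1, Sox4, Sox11 and Dcx had between 85 and 670 counts in every library, whereas Top2a had 2 to 32, Mki67 11 to 48, Draxin 2 to 30 and Eomes 0 to 120 counts per input.

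**Figure D1:**
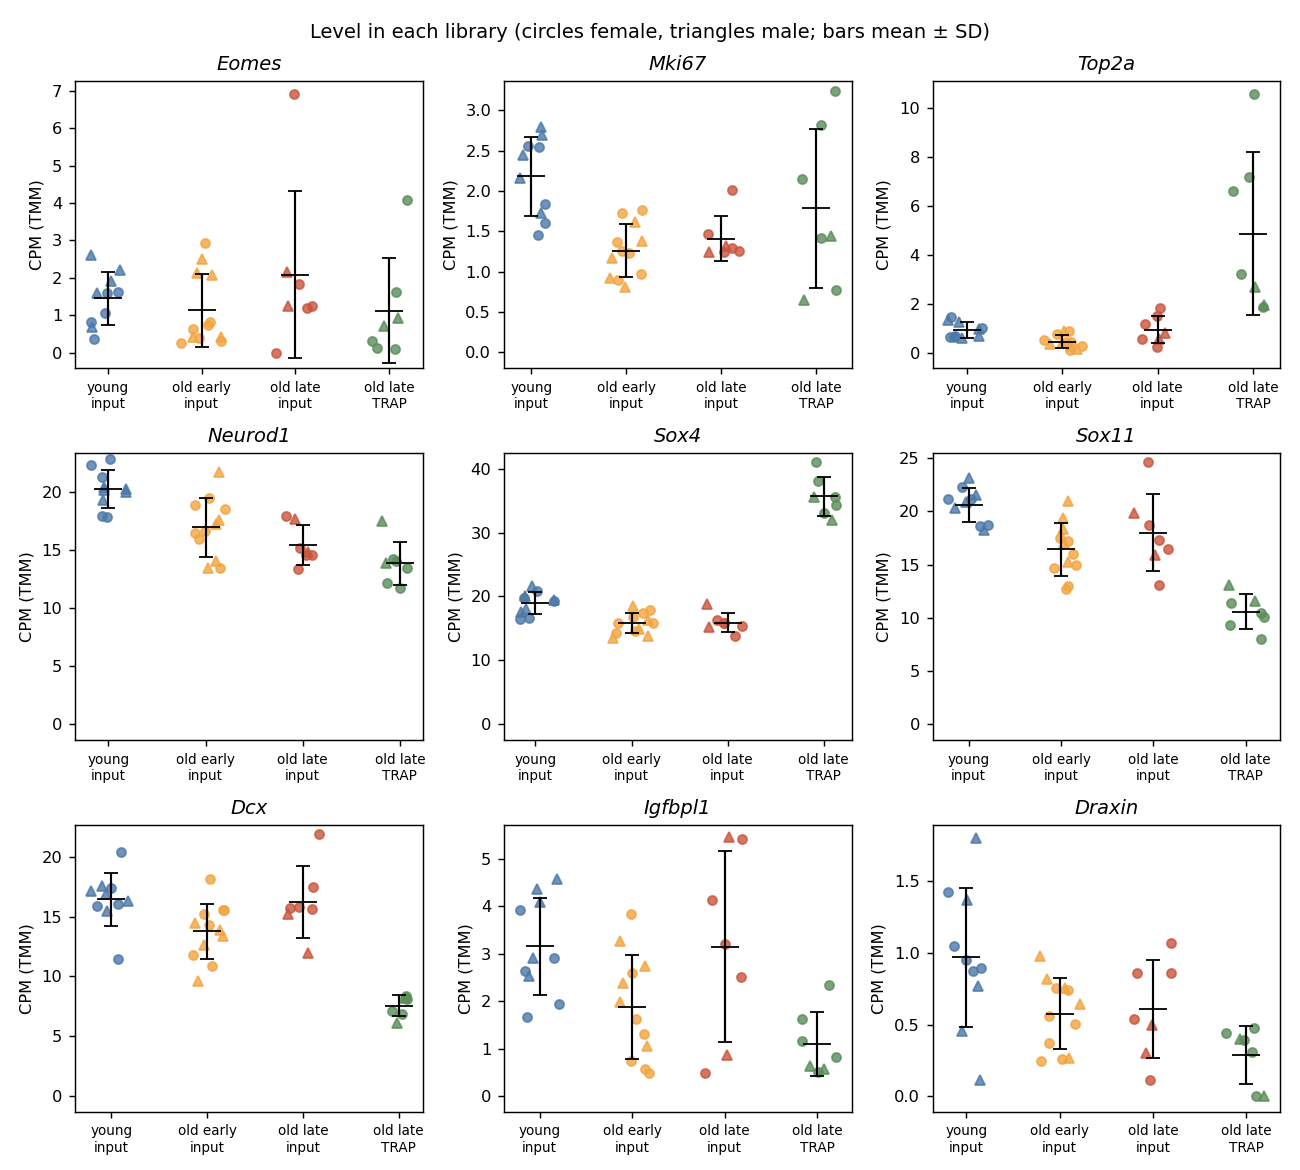
Level of each member in every library, in CPM with TMM scaling on a linear axis, for the 4 groups on the x axis. Points are libraries (circles female, triangles male) and bars are the mean ± SD; Mki67 and Top2a sit lower in old early than in young inputs, and Sox4 and Top2a sit above all inputs of the same animals in TRAP.

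The first comparison asked which members differ between young and old whole hippocampus after early induction. The series of animal numbers differs along with age, and time since induction may differ too. Their parts cannot be told apart. Of the 9 members, 6 fell from young to old early inputs and 0 rose (edgeR quasi-likelihood test, Benjamini-Hochberg adjusted p under 0.05). Of all 14948 genes tested, 12.6% were called lower, 13% higher and 25.6% in either direction. The median log2 change of the members was -0.34, against 0.0067 for all genes tested, and all 9 estimates were negative. The members were chosen as a group, so this count is a description and was not tested as a group. In bulk tissue, fewer cells of a type and less RNA per cell cannot be told apart.

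The proliferation genes showed the largest falls among the called members. Mki67 ran from 1.46 to 2.79 CPM in young inputs (median 2.31) and from 0.815 to 1.77 CPM in old early inputs (median 1.24). In 9 of 12 old early inputs it lay below every young input. It fell by 0.78 on the log2 scale (SE 0.16, adjusted p = 0.000408 by edgeR). Top2a ran from 0.602 to 1.44 CPM in young inputs (median 0.819) and from 0.126 to 0.874 CPM in old early inputs (median 0.398). It too lay below every young input in 9 of 12 libraries, and it fell by 1.01 on the log2 scale (SE 0.32, adjusted p = 0.0174 by edgeR). The ranges of both genes overlapped, and Top2a rests on a median of 14 counts in young and 6 in old early inputs.

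Of the transcription factors of the neuronal lineage, Sox11, Sox4 and Neurod1 fell by less than the proliferation genes and had smaller errors. Sox11 ran from 18.2 to 23.2 CPM in young inputs (median 21.005) and from 12.8 to 21.01 CPM in old early inputs (median 16.5). It was below every young input in 9 of 12 libraries and fell by 0.32 on the log2 scale (SE 0.083, adjusted p = 0.00477 by edgeR). Sox4 ran from 16.4 to 21.6 CPM (median 19.4) in young and from 13.5 to 18.5 CPM (median 15.9) in old early inputs. It fell by 0.26 (SE 0.063, adjusted p = 0.00277 by edgeR), with 8 of 12 old early inputs below all young ones. Neurod1, a basic helix-loop-helix factor of granule neuron differentiation, ran from 17.9 to 22.8 CPM (median 20.2) in young and from 13.4 to 21.7 CPM (median 16.96) in old early inputs. It fell by 0.25 (SE 0.074, adjusted p = 0.0116 by edgeR), also with 8 of 12 below. Eomes, the marker of intermediate progenitors, was not called: it ran from 0.357 to 2.62 CPM (median 1.59) in young and from 0.247 to 2.92 CPM (median 0.683) in old early inputs. Its log2 change was -0.34, with a 95% interval from -1.29 to 0.62.

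Among the genes of migrating and maturing neurons, Dcx alone was called with all libraries. It ran from 11.4 to 20.4 CPM in young inputs (median 16.6) and from 9.63 to 18.1 CPM in old early inputs (median 14.1). It fell by 0.27 (SE 0.095, adjusted p = 0.0351 by edgeR), but only 2 of 12 old early inputs lay below all young ones. Igfbpl1 ran from 1.66 to 4.57 CPM (median 2.91) in young and from 0.493 to 3.83 CPM (median 1.80) in old early inputs. Its log2 change was -0.71, with a 95% interval from -1.38 to -0.051 and an adjusted p of 0.104 by edgeR. Without old early replicate 4 it was called, at -0.89 with an adjusted p of 0.0406 by edgeR. In 28 of 29 runs with one library left out it was not called, with adjusted p up to 0.171 by edgeR. Draxin ran from 0.116 to 1.80 CPM (median 0.923) in young and from 0.247 to 0.981 CPM (median 0.599) in old early inputs. Its log2 change was -0.75, with a 95% interval from -1.41 to -0.090 and an adjusted p of 0.0860 by edgeR. Without young replicate 3 Draxin was called, at -0.89 with an adjusted p of 0.0279 by edgeR. It too was not called in 28 of 29 such runs, with adjusted p up to 0.194 by edgeR. The Dcx call was lost without any of 8 single libraries (young replicates 1, 3, 4, 9 and 10, old early replicates 5, 9 and 10), with adjusted p up to 0.0709, and without the sex term, at 0.0522. In females alone, 1 of 9 members was called (Sox11, at -0.43), as against 6 in both sexes, and 1198 genes in all were called as against 3826.

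Other genes of the lineage changed in both directions. Of 32 tested genes of progenitors, neuroblasts and immature granule neurons outside the 9 members, 9 fell and 3 rose (median log2 change -0.045). The axon guidance receptor subunit Plxna3 fell by 0.43 and the collapsin response mediator Dpysl5 fell by 0.31. Of 18 stem cell and radial glia genes, 6 rose and 1 fell (median 0.063). The intermediate filament gene Nes rose by 0.59 and the stem cell factor Sox2 by 0.34 on the log2 scale, both of which cells other than stem cells express. Of 13 relatives and receptors of the members, 7 fell and 1 rose, among them the third SoxC gene, Sox12, which fell by 0.33. Of 12 markers of mature granule neurons, 4 fell and 0 rose. The desmosomal gene Dsp fell by 0.80 and the calcium buffer gene Calb1 by 0.12.

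Few of the other cell cycle genes were called. Of 32 tested genes of G2 phase and mitosis, 4 fell and 1 rose (median -0.16). Prc1 and Kif23, of the spindle midzone, fell by 0.75 and 0.81, and the spindle assembly factor Tpx2 fell by 0.55. Anln, which encodes the contractile ring protein anillin and is also expressed by oligodendrocytes, rose by 0.33. Of 23 S phase genes, 2 fell and 1 rose (median -0.0019): the thymidylate synthase gene Tyms fell by 0.38, the helicase subunit Mcm6 by 0.29, and the polymerase clamp gene Pcna rose by 0.16. Oligodendrocyte precursors also divide in the adult brain, and of 12 markers of these cells and their progeny 4 fell and 2 rose. Gpr17, a receptor of committed precursors, fell by 0.83. Their summed level ran from 390 to 423 CPM in young and from 323 to 387 CPM in old early inputs. Microglial markers moved the other way: 19 of 20 rose, with summed levels of 569 to 656 CPM in young and 752 to 899 CPM in old early inputs. The choroid plexus sum had a median of 1991 CPM in young and 109 CPM in old early inputs. Of the astrocyte markers 3 of 8 rose, of the endothelial markers 1 of 6 and of the blood markers 1 of 3. The part of these cell types in the members' falls was not tested. Of 9 markers of olfactory-type neuroblasts, which would come from tissue outside the hippocampus, 0 were called by edgeR and 1 had an unadjusted p under 0.05.

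The second comparison set old late-induced inputs against the same 10 young inputs. Age and the time of induction differ together between these groups, so their parts cannot be told apart. Of the 9 members, 3 fell and 0 rose, and of all 14948 genes 17.5% were called lower, 17% higher and 34.5% in either direction. The median log2 change of the members was -0.17, against 0.011 for all genes. Neurod1 ran from 13.4 to 17.96 CPM in old late inputs (median 14.9), with 6 of 7 below every young input. It fell by 0.39 (SE 0.087, adjusted p = 0.000806 by edgeR). Sox4 ran from 13.9 to 18.8 CPM (median 15.8), also with 6 of 7 below, and fell by 0.25 (SE 0.073, adjusted p = 0.00752 by edgeR). Mki67 ran from 1.24 to 2.01 CPM (median 1.29), with 5 of 7 below, and fell by 0.63 (SE 0.18, adjusted p = 0.00768 by edgeR). In females alone Mki67 lost its call, at -0.46 with an adjusted p of 0.201.

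The other 6 members were not called between old late and young inputs. Sox11 ran from 13.1 to 24.7 CPM (median 17.3), and its log2 change was -0.17 (95% interval -0.37 to 0.025). Without old late replicate 7, which held its highest value, Sox11 was called at -0.28 with an adjusted p of 0.0133 by edgeR. In 28 of 29 runs with one library left out it was not called, with adjusted p up to 0.380 by edgeR. Dcx ran from 12.0 to 21.9 CPM (median 15.7), with a log2 change of -0.056 (95% interval -0.28 to 0.17). Top2a ran from 0.239 to 1.81 CPM (median 0.780), wider than its young range on both sides, with a log2 change of -0.017 (95% interval -0.70 to 0.67). Igfbpl1 ran from 0.479 to 5.46 CPM (median 3.20), with a change of 0.11 (95% interval -0.64 to 0.86). Draxin ran from 0.113 to 1.07 CPM (median 0.539), with a change of -0.69 (95% interval -1.47 to 0.084). Eomes ran from 0 to 6.90 CPM (median 1.24), with a change of 0.69 (95% interval -0.37 to 1.76). That value depends on old late replicate 5, the library at 6.90 CPM (120 counts), without which it was -0.054.

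The related genes again moved in both directions. Of 32 neuroblast and immature neuron genes, 11 fell and 4 rose: the bHLH factor Neurod2 fell by 0.27 and Bhlhe22 by 0.36, while the tubulin-binding gene Stmn1 rose by 0.42. Of 18 stem cell and radial glia genes, 7 rose and 1 fell, with Nes higher by 0.86, while the growth factor receptor gene Egfr fell by 0.46. Of 32 G2 and mitosis genes, 5 fell and 1 rose, the latter again Anln at 0.35, and of 23 S phase genes 3 fell and 3 rose. Among them the replication licensing gene Cdc6 fell by 1.04. All 20 microglial markers rose, with summed levels of 798 to 1154 CPM in old late inputs. Blood markers rose in 3 of 3 genes, with a median sum of 127.5 CPM in young and 337 CPM in old late inputs. Of the astrocyte markers 3 of 8 rose, and of the endothelial markers 2 of 6. The part of these cells in the members' levels was not tested.

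**Figure D2:**
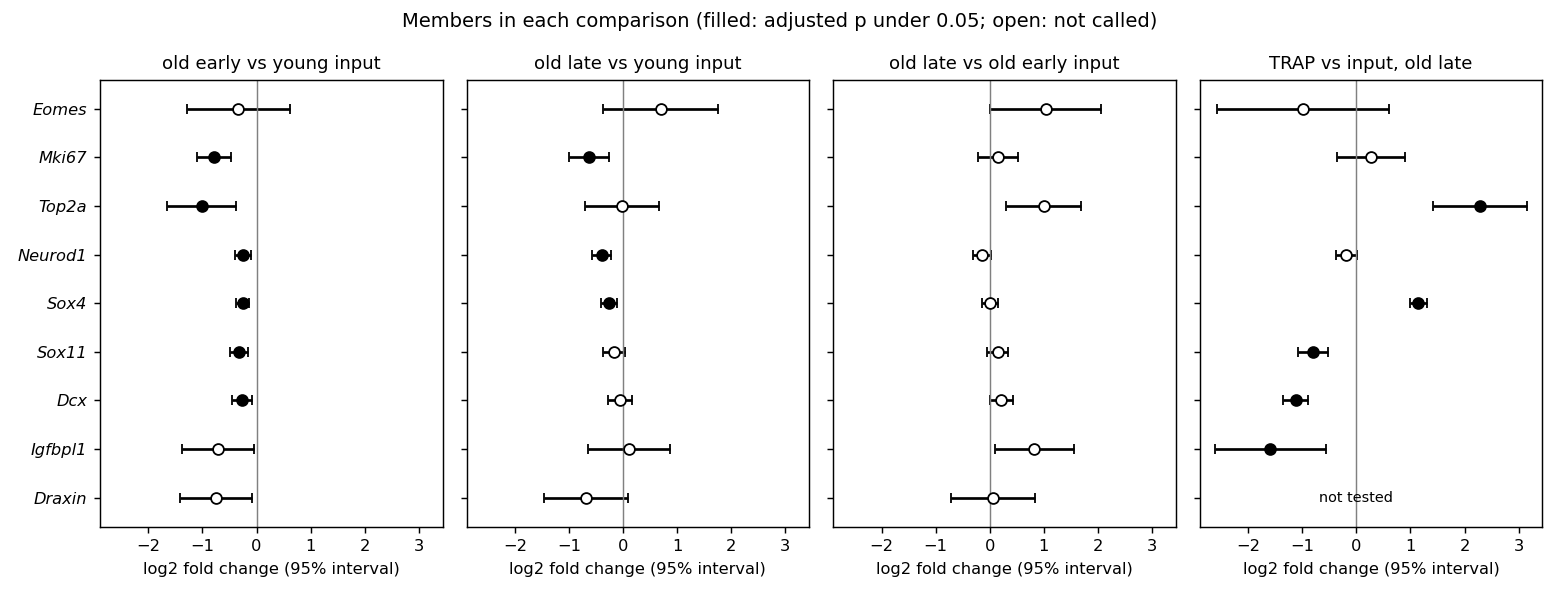
Log2 fold change of each member (y axis) in 4 comparisons, with 95% intervals from the edgeR fit on a common x axis; filled points have an adjusted p under 0.05 over all genes. In old early inputs 6 members are filled and below 0, in old late inputs 3, between the old groups 0, and in TRAP 3 are below and 2 above 0.

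The third comparison set the 2 old groups against each other, to see whether members differ with the age at induction. Time since induction and the series of animal numbers differ along with it, so these cannot be told apart. Of the 9 members, 0 were called by edgeR, and 3 had an unadjusted p under 0.05 (Top2a, Igfbpl1 and Eomes). DESeq2, limma voom and the other settings also called 0 members. Of 14948 genes, 0.0334% were called (5 genes), 0.0268% higher and 0.00669% lower. The largest differences were in genes with few counts. Top2a was higher in 3 of 7 old late inputs than in every old early input, with a log2 difference of 1.00 (95% interval 0.30 to 1.69) and an adjusted p of 0.245. Eomes differed by 1.03 (95% interval 0.00256 to 2.06), and by 0.27 without old late replicate 5. Igfbpl1 differed by 0.82 (95% interval 0.093 to 1.55), with 3 of 7 old late inputs above every old early input. Dcx differed by 0.21 (95% interval -0.00013 to 0.43, adjusted p = 0.430 by edgeR) and Sox11 by 0.15 (95% interval -0.042 to 0.34). Mki67 differed by 0.15 (95% interval -0.21 to 0.51), Sox4 by 0.0043 (95% interval -0.14 to 0.15), Neurod1 by -0.14 (95% interval -0.31 to 0.030) and Draxin by 0.059 (95% interval -0.72 to 0.84). So for Dcx, Sox11 and Top2a, which were called against young in one old group only, the difference between the old groups itself was not called. Choroid plexus markers moved in the same direction as Top2a, Igfbpl1 and Eomes: their median sum was 109 CPM in old early and 2021 CPM in old late inputs, with 0 of 6 genes called by edgeR (0 of 6 at an unadjusted p under 0.05), and their part was not tested.

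Sex was compared within the 29 inputs. Of the 9 members, 0 were called between males and females by edgeR, by DESeq2 or by limma voom, and 0 had an unadjusted p under 0.05. Of all genes, 0.174% were called (26 genes), 0.0468% higher in males and 0.127% lower. Estimates ran from -0.18 for Top2a to 0.53 for Eomes, and the smallest adjusted p was 0.543. The interaction of age and sex in the 22 early-induced inputs called 0 of 9 members and 0% of 14953 genes by edgeR. At an unadjusted p under 0.05 there were 0 members and 2301 genes, and DESeq2 called 0 members and 21 genes. The smallest adjusted p of a member was 0.390, for Sox11. Its mean was 20.8 ± 1.8 CPM in young males and 18.2 ± 2.2 CPM in old early males (SD, n = 5 each), against 20.4 ± 1.6 CPM in young females (n = 5) and 15.2 ± 1.9 CPM in old early females (n = 7).

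The fourth comparison asked which members were higher or lower in the pulldown than in the input. It gives levels relative to input only. No pulldown without cre was compared, so whether a member was carried by tagged ribosomes cannot be told. Of 8 members tested between TRAP and input of the same 7 old late animals, 2 rose, 3 fell and 3 were not called, and Draxin was under the filter on low counts. The main fit had terms for fraction and sex but none for the animal, so its errors and intervals do not use the pairing. Of all 14596 genes tested, 30.4% were called higher, 28.8% lower and 59.2% in either direction, so calls are common here. The split depends on the scaling: TMM gave 4442 higher and 4198 lower, library size alone 3564 and 5748, and the upper quartile 3280 and 6372. With those scalings the median of all genes moved from -0.020 to -0.13 and -0.16. No tested member changed direction under any of the scalings.

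Sox4 and Top2a were higher in the pulldown of every animal. Sox4 ran from 13.9 to 18.8 CPM in the inputs (median 15.8) and from 31.9 to 41.1 CPM in TRAP (median 35.5). The 7 ratios of TRAP to input lay between 0.91 and 1.37 on the log2 scale. Sox4 rose by 1.15 (SE 0.075, adjusted p = 8.4e-10 by edgeR), a 2.21-fold difference. Sox11, the related SoxC gene, went the other way in every animal. It ran from 13.1 to 24.7 CPM in the inputs and from 7.98 to 13.1 CPM in TRAP (median 10.4), with no overlap between the fractions, and fell by 0.80 (SE 0.13, adjusted p = 5.3e-05 by edgeR). The third member of that family, Sox12, fell by 0.87. Endothelial markers were also higher in TRAP (5 of 6 called, with summed levels of 53.4 to 82.0 CPM in inputs and 136 to 230 CPM in TRAP), and their part in the Sox4 level was not tested.

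Dcx and Igfbpl1 also fell in the pulldown, while Neurod1 and Eomes were not called. Dcx ran from 12.0 to 21.9 CPM in the inputs and from 6.14 to 8.35 CPM in TRAP (median 8.08), again with no overlap. It fell by 1.12 (SE 0.11, adjusted p = 1.6e-07 by edgeR). Igfbpl1 ran from 0.514 to 2.35 CPM in TRAP (median 0.830) and fell by 1.59 (SE 0.48, adjusted p = 0.00946 by edgeR). It was lower in 6 of 7 animals, but its ranges overlapped, and with limma voom the adjusted p was 0.0627. Neurod1 stayed close to its input level, from 11.7 to 17.5 CPM in TRAP (median 13.9). Its log2 change was -0.18 (95% interval -0.37 to 0.0061, adjusted p = 0.0888 by edgeR). Neurod1 was called at -0.29 with library size scaling, at -0.33 with the upper quartile and at -0.23 without TRAP replicate 1. In 13 of 14 runs with one library left out it was not called. Eomes ran from 0.103 to 4.07 CPM in TRAP (median 0.722) and was lower in 6 of 7 animals. Its log2 change was -0.98 (95% interval -2.57 to 0.61), and with each animal as a block it was called at -1.03 with an adjusted p of 0.0121 by edgeR. In the fit without the block, the value moved with the single libraries of animal 5, which was highest in both fractions. It was -1.84 without TRAP replicate 5, where it was called at an adjusted p of 0.0462 by edgeR, and -0.25 without input replicate 5. The ratio of TRAP to input in animal 5 itself was -0.74 on the log2 scale, the median of the 7 animals. Draxin had 0 counts in 2 TRAP libraries, where 3 counts would be 0.217 and 0.184 CPM, and reached 0.474 CPM in another, lower than the input of the same animal in 7 of 7. Of 31 other neuroblast and immature neuron genes tested, 21 fell and 0 rose in TRAP (median -0.30), among them the adhesion gene Ncam1 at -0.58. Of the markers of neurons 4 of 5 fell, of astrocytes 7 of 8 and of oligodendrocyte precursors 10 of 12, where 1 rose. The falls of the neuron markers were small, with a median of -0.27. Their summed level was 4679 to 5278 CPM in inputs and still 3582 to 4710 CPM in TRAP. How much of the members' TRAP levels came from such carried-over RNA was not tested. Other lists were mixed. Of 12 markers of mature granule neurons, 2 rose (Dsp by 1.40 and C1ql2 by 0.30) and 2 fell. Of 18 stem cell and radial glia genes, 4 rose, among them Nes by 1.72 and Notch2 by 0.78, and 10 fell.

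**Figure D3:**
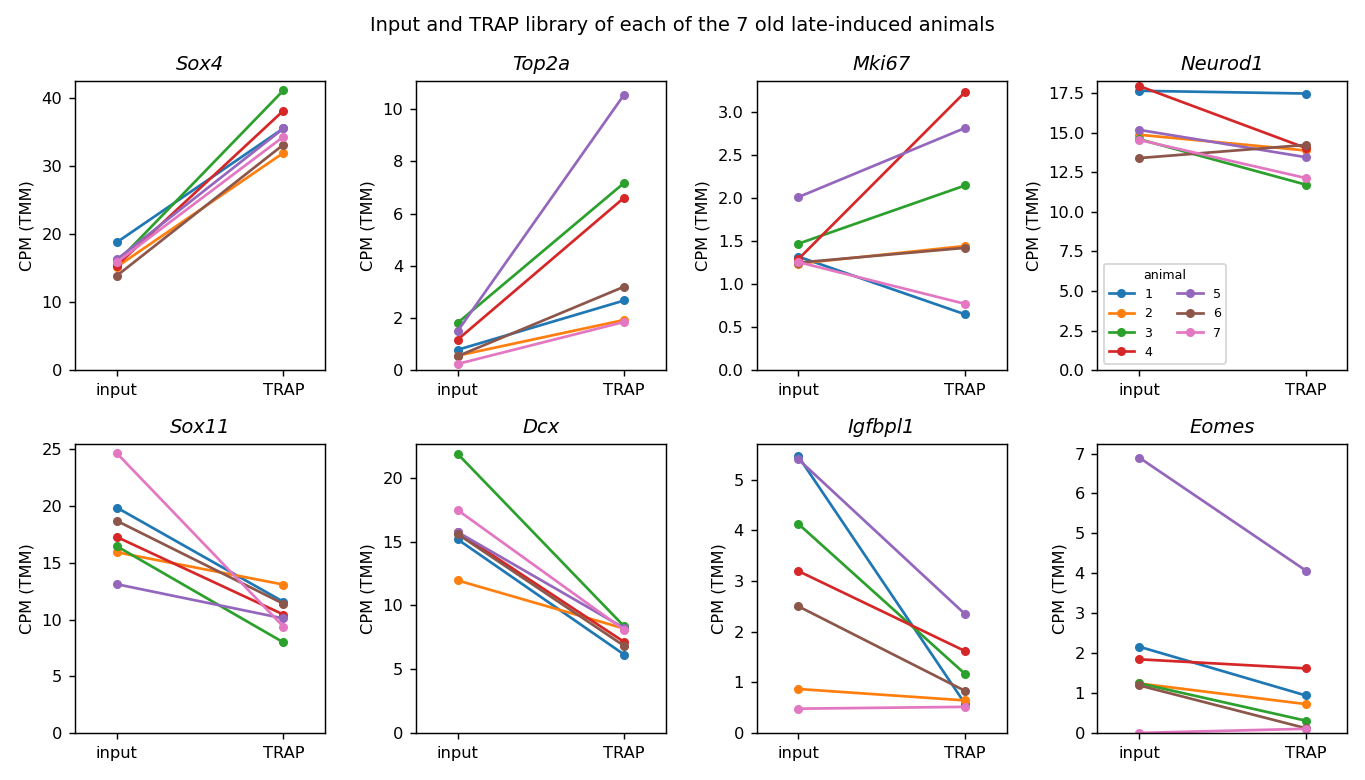
Level in CPM (TMM scaling, linear axis from 0) of 8 members in the input and the TRAP library of each old late-induced animal, joined by a line per animal. Sox4 and Top2a rise in 7 of 7 animals, Sox11 and Dcx are lower in 7 of 7, and Mki67 is higher in 5 of 7.

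Top2a had the largest change of the members in TRAP. In the order of animals 1 to 7, its inputs had 13, 9, 32, 19, 26, 9 and 4 counts, and its TRAP libraries had 37, 24, 117, 90, 135, 54 and 36 counts. In CPM the inputs ran from 0.239 to 1.81 and the TRAP libraries from 1.85 to 10.6 (median 3.20), so every TRAP library lay above every input. Top2a rose by 2.28 (SE 0.41, adjusted p = 0.000157 by edgeR), a 4.86-fold difference. Its inputs held as few as 4 counts and its TRAP libraries 24 or more, so Top2a passed the filter on low counts mainly through TRAP. The highest TRAP library, of animal 5, had 10.6 CPM with an exact 95% interval of 8.86 to 12.5 CPM, and the lowest, of animal 7, had 1.85 CPM with an interval of 1.30 to 2.56 CPM. These intervals cover counting error only, and they do not overlap. Animals 3, 4 and 5 had the 3 highest levels in both fractions. The summed level of the microglial markers in TRAP was also highest in these 3, at 23294 CPM in animal 3, 22625 CPM in animal 5 and 17480 CPM in animal 4, against 14716 to 16962 CPM in the other 4, and its part in the order of the animals was not tested. Over the 7 animals the log2 levels in input and TRAP had a Pearson r of 0.891 (exact permutation p = 0.00893, 0.0402 adjusted over 9 members) and a Spearman rho of 0.857 (exact permutation p = 0.0238, adjusted 0.107). Without the 2 animals farthest from the median input, r was 0.923. Draxin, under the filter on low counts, had r = 0.895 (exact permutation p = 0.00476, adjusted 0.0402) and rho = 0.811 (exact permutation p = 0.0381, adjusted 0.114). Its TRAP libraries at 0 counts were those of animals 1 and 3, which had its lowest inputs, at 0.300 and 0.113 CPM. The r of Draxin therefore depends on the 0.1 CPM added before taking log2. Eomes had r = 0.792 (exact permutation p = 0.0222, adjusted 0.0667) and rho = 0.929 (exact permutation p = 0.00675, adjusted 0.0607). For the other 6 members the adjusted p of r was 0.327 or more.

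Mki67 was not called in the pulldown. It ran from 1.24 to 2.01 CPM in the inputs and from 0.650 to 3.23 CPM in TRAP (median 1.44), higher in 5 of 7 animals. Its log2 change was 0.27 (95% interval -0.36 to 0.90). The difference between Top2a and Mki67 was not tested. The 3 animals with the highest Mki67 in TRAP were 4, 5 and 3, the same 3 as for Top2a.

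Genes of DNA replication and mitosis were measured alongside. Of 24 S phase genes tested, 13 rose and 2 fell in TRAP (median log2 change 0.41, against -0.020 for all genes). The helicase subunit gene Mcm3 rose by 3.07, from 2.28 to 5.00 CPM in inputs to 21.3 to 47.1 CPM in TRAP, and the licensing factor gene Cdt1 rose by 2.31. The helicase subunit Mcm5 rose by 1.08 and the DNA ligase gene Lig1 by 0.74. Of 30 G2 and mitosis genes tested, 12 rose and 2 fell (median 0.38). Of all 14596 genes, 30.4% were called higher and 28.8% lower. The summed level of the G2 and mitosis list, Anln included, had a median of 139 CPM in inputs and 115 CPM in TRAP. That of the S phase list was 201 CPM in inputs and 287 CPM in TRAP. In the G2 and mitosis list, Cdk1, the kinase that drives mitotic entry, had 0 to 10 counts in the inputs and 8 to 77 in TRAP. Cdk1 thus passed the filter on low counts mainly through TRAP. Of the genes that rose, the mean input count was at least 10 for 12 of the 13 S phase genes and for 11 of the 12 G2 and mitosis genes. The exceptions were Tk1 in the former and Cdk1 in the latter. The centromeric histone gene Cenpa rose by 1.17 and the cytokinesis gene Racgap1 by 0.54, while Anln fell by 1.14. In TRAP, Cdk1 was highest in animals 3 and 5, at 4.73 and 3.91 CPM, and Mcm3 was highest in the same 2 animals, which also had the highest sums of microglial markers. The microglial markers rose with a median of 4.28, from summed levels of 798 to 1154 CPM in inputs to 14716 to 23294 CPM in TRAP. Their changes ran from 2.93 to 4.45, a range that Mcm3 reached and Top2a did not. Markers of oligodendrocyte precursors, which also divide, fell from 339 to 381 CPM in inputs to 240 to 271 CPM in TRAP. Endothelial markers rose (5 of 6 called, median 1.26), from 53.4 to 82.0 CPM in inputs to 136 to 230 CPM in TRAP. The part of each cell type in the levels of the cell cycle genes was not tested. In the promoters shown above, Top2a and Mki67 both held CCAAT and TTTGAA, and their TRAP changes were 2.28 and 0.27.

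**Figure D4:**
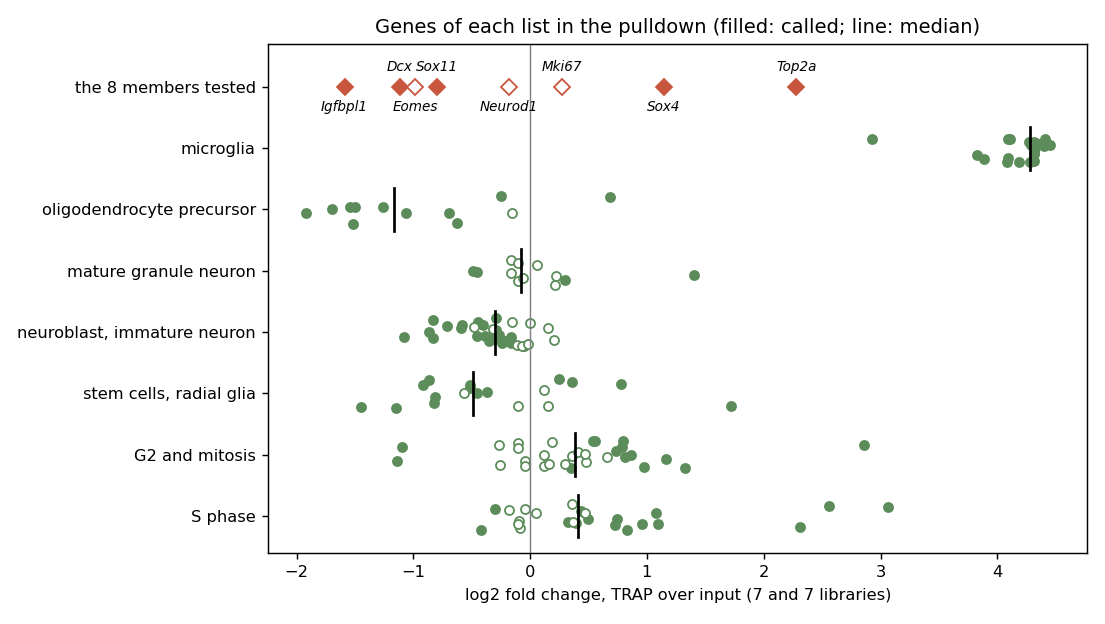
Log2 fold change between TRAP and input (x axis) for the genes of 7 lists and for the 8 members tested; each point is a gene, filled where the adjusted p is under 0.05, and lines are list medians. Sox4 and Top2a lie to the right of 0, where most S phase and G2 genes also lie, and Dcx, Sox11 and Igfbpl1 to the left with the neuroblast genes; members are labelled.

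The members were then compared with each other over the 29 inputs, after subtracting group means from log2 CPM. Of 36 pairs, 1 had an adjusted p under 0.05: Eomes and Igfbpl1, with r = 0.646 (permutation p = 0.00092, adjusted 0.0331) and rho = 0.570 (permutation p = 0.00234, adjusted 0.0842). The correlation was 0.470 within the 12 old early, 0.828 within the 7 old late and 0.530 within the 10 young inputs. Without the 2 libraries farthest from the median of Eomes, r was 0.465. The cell cycle pair Mki67 and Top2a had r = 0.308 (permutation p = 0.104, adjusted 0.533), and the SoxC pair Sox4 and Sox11 r = 0.176 (permutation p = 0.380, adjusted 0.868). Sox11 and Top2a had r = -0.474 (permutation p = 0.0261, adjusted 0.367). The libraries differ in depth and in choroid plexus level, whose part in these correlations was not tested.

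**Figure D5:**
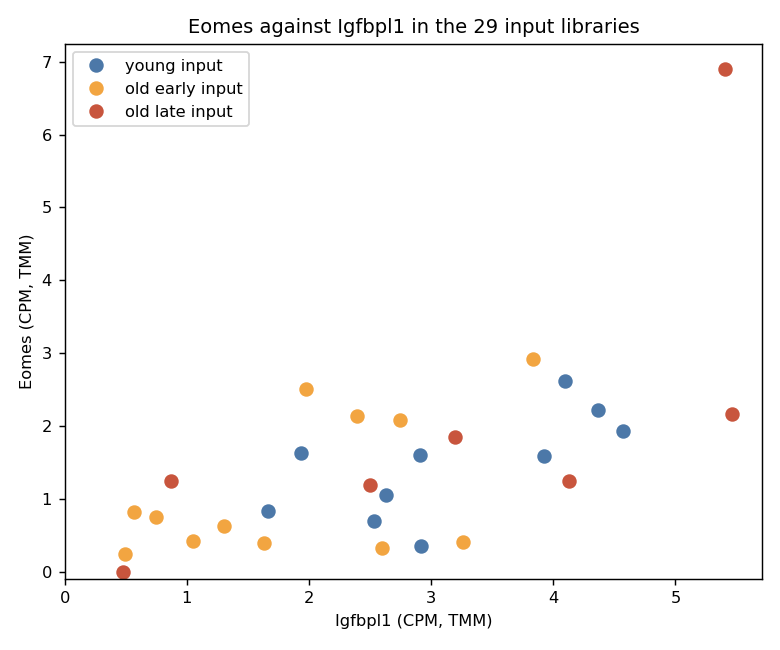
Level of Eomes (y axis) against Igfbpl1 (x axis) in the 29 inputs, in CPM with TMM scaling, with a point per library coloured by group. Higher Igfbpl1 tends to go with higher Eomes (r = 0.646 on log2 levels after subtracting group means), with exceptions such as an old late input at 0.868 CPM of Igfbpl1 and 1.24 CPM of Eomes, and 1 old late input stands apart at 6.90 CPM of Eomes.

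Across all genes tested in the 29 inputs, the 5 whose log2 CPM was most correlated with Dcx included Spata7, Pcdh15, Rexo1 and Kcnt1, with r from 0.702 to 0.720. After group means were subtracted, these r ran from 0.620 to 0.793. For Top2a they included Cd46, Entpd4, Nup133 and Ckap2, with r from 0.627 to 0.662. After group means were subtracted, these ran from 0.332 to 0.636. None of the other members was among either set of 5. These genes are named for likeness over 29 libraries only.

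By the annotation, which uses the same genome as the deposited coordinates (mm10), Dcx lies on chrX:143855842-143933219 and Sox11 on chr12:27334268-27342718, and neither overlaps another gene. The same was found for Igfbpl1 on chr4:45809507-45826827. Neurod1 (chr2:79452641-79456636) overlaps Cerkl on the same strand, so reads could be divided between them. Draxin (chr4:148098437-148130698) overlaps Mad2l2 on the opposite strand, and Sox4 (chr13:28950730-28953682) and Eomes (chr9:118478189-118486132) overlap noncoding genes on the opposite strand. Top2a (chr11:98992947-99024189) contains small nucleolar RNA genes and Mki67 (chr7:135689788-135716379) overlaps an unclassified opposite transcript. Whether the counting used strand is not given in the sources used here, so the values of these overlapping genes are less certain.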

How the data were processed

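PolyA RNA of whole hippocampus (29 inputs) and of TRAP pulldowns (7) was sequenced. What the authors deposited is a single table with a column of estimated counts for each of 36 libraries, raw per the file headers. Of its nonzero values, 77.2% were not whole. The genome build was mm10, and DESeq2 is listed without a role, both per the submitters' processing notes. The aligner, counter and strand handling are not given in the sources used here.

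Counts were rounded and tested with edgeR 4.0.16 in R 4.3.3 (filterByExpr by group with a minimum count of 10, TMM, glmQLFit, glmQLFTest). A gene was called at a Benjamini-Hochberg adjusted p under 0.05 over all genes. Group and sex were fitted together in the 29 inputs for the contrasts of age, induction and sex, the interaction from the 22 early-induced inputs, and TRAP against input from 14 libraries with fraction and sex. Standard errors came from the F statistic. Levels are CPM with TMM over all libraries, and log2 CPM used a prior count of 2. For the correlations of input with TRAP over animals, 0.1 CPM was added before taking log2 instead. The labels give an input and a TRAP library the same animal number. Their deviations from the group means correlated at 0.383 to 0.558 in all 7 pairs, against a median of -0.102 between animals. Correlations used scipy 1.17.1, and figures matplotlib 3.10.9.

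The members, named by symbol, and the lists were chosen with earlier results of these data known. Named genes were the members, the up to 4 genes of each list with the smallest adjusted p per comparison, Cx3cr1, and the 5 genes most like Dcx and Top2a, of which 1 for each is not reported here. Of 214 list genes, 210 were in the table. DESeq2 1.42.0 and voom of limma 3.58.1 were alternatives, as were other scalings, filters, covariates and samples, an animal block, and each library left out. Tests were tested on simulated data. Promoters are from RefSeq, and exon lengths and overlaps from the GENCODE annotation. With no molecular identifiers, intervals on counts leave out amplification error.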

Additional observations from a re-analysis of the deposited data

Results flagged for a closer look

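Each of the 9 members was checked in the 3 groups of 7 or 10 libraries, 27 sets in all, for a library far from the rest. In 3 sets the gap to the next library passed Dixon's 95% critical value, where chance gives about 1.35. Dcx was lowest in young input replicate 5, at 11.4 CPM (about 192 counts), with the next library at 15.4 CPM. Eomes was at 0 CPM in old late input replicate 7, where 3 counts would be 0.180 CPM, with the next at 1.19 CPM. Mki67 was highest in old late input replicate 5, at 2.01 CPM (35 counts), with the next at 1.47 CPM.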

How the results depend on the processing

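The 6 member calls of old early against young inputs, the 3 of old late against young and 4 of the 5 of TRAP against input held under the other scalings, filters and tools wherever the gene passed the filter; the fifth, Igfbpl1, was lost with limma voom. With a minimum count of 30, only 3 members were called in TRAP, since fewer were tested. In females alone the calls fell to 1 member and 1198 genes for old early and to 2787 genes for old late against young. With the animal as replicate block, Eomes was called at -1.03 (adjusted p = 0.0121 by edgeR) and no other member's call changed. Old late against old early inputs gave 5 genes, but 58 with DESeq2, 3 with limma voom, 182 in females, 0 with only those 2 groups fitted, and 0 (without old late replicate 2) to 164 (without old early replicate 5) with one library left out. Sex gave 26 genes, but 63 with DESeq2, 12 in early-induced inputs alone and 17 to 32 with one library left out. The interaction gave 0 genes, but 21 with DESeq2 and 0 to 453 with one library left out, the last without old early replicate 6. The cause of these shifts was not tested.

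Signs that turned were all of members not called. For old late against young, Top2a was at 0.00718 with upper quartile scaling, 0.032 without the sex term, 0.24 in females and -0.24 to 0.13 with one library left out. Igfbpl1 was at -0.27 with limma voom, -0.00710 without the sex term and -0.099 to 0.34 with one library left out. Eomes was at -0.085 with limma voom and -0.054 to 0.89 with one left out, and Dcx at 0.089 in females and -0.14 to 0.00728 with one left out. Between the old groups, Draxin was at -0.087 with limma voom and -0.13 to 0.24 with one left out, and Sox4 at -0.063 in females and -0.046 to 0.033 with one left out. Depth limits Top2a, Draxin and Eomes most, since some inputs hold fewer than 5 counts of each.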

Other observations

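The genes most like Eomes and Igfbpl1 over the 29 inputs were looked at after their values were seen. For Eomes they included Sln (r = 0.870), Ebf3 (r = 0.787) and Calb2 (r = 0.784), the last encoding the calcium buffer calretinin, which immature granule neurons and several kinds of interneuron express. For Igfbpl1 they included Prdm12 (r = 0.837), Sp9 (r = 0.782) and Avpr1a (r = 0.782), a vasopressin receptor gene. Sp9 is on the list of olfactory-type neuroblast markers, which would come from tissue outside the hippocampus, and the part of such tissue was not tested. In old late input replicate 5, the library with the highest Eomes, Sln was at 3.62 CPM, Ebf3 at 7.99 CPM and Prdm12 at 4.83 CPM. In replicate 7 of the same group, where Eomes was at 0, Sln was at 0, Ebf3 at 0.898 CPM and Prdm12 at 0.120 CPM. Over the 3 comparisons of input groups, the smallest adjusted p of Sln, Ebf3, Calb2, Prdm12, Sp9 and Avpr1a was 0.0611 by edgeR, for Ebf3 in old late against young.

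In TRAP, 2 more cell cycle genes were noticed after their values were seen. The thymidine kinase gene Tk1 rose by 2.56 (adjusted p = 9.8e-05 by edgeR), and the cyclin gene Ccna2 rose by 1.33 (adjusted p = 0.00532 by edgeR). The mean input count of Tk1 was under 10, so it passed the filter on low counts at least in part through TRAP. Kif2c, a kinesin of the centromere, had 6 to 58 counts in the TRAP libraries and at most 8 in the inputs.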
